A study of Drosophila melanogaster with 12 samples.

Results

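Intronic RNA, the part of a transcript that splicing removes, was followed through ribosomal RNA depletion in *Drosophila* larvae. Genes were chosen by 1 rule, at least 10 estimated counts on intronic sequence alone in each of the 6 random-primed libraries. The rule kept 653 of 17668 genes that are neither rRNA nor spike-in, and 9093 genes had an intronic count in any of the 6 libraries. RNA came from Oregon-R flies raised at 25 °C, as 3 pools of 40 larvae at the wandering stage of the third instar. Each pool (RNA sample 1, 2 or 3) was split into a portion depleted with Ribo-Pop, a set of biotinylated antisense oligonucleotides that pull rRNA out on streptavidin beads, and an untreated input portion. Each portion gave 1 random-primed library, which reads along whole RNA molecules, and 1 poly(A)-primed library, which reads the stretch before a poly(A) tail. The groups were thus random-primed depleted, random-primed input, poly(A)-primed depleted and poly(A)-primed input, with 3 libraries each. No mutant, transgene or drug was used. Larvae were pooled whole, so values are averages over tissues. For levels within a library, fewer cells of a type cannot be told apart from less RNA per cell. Depleted and input portions came from the same extracted RNA, so the cells behind them did not differ.

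Most fly genes are transcribed with introns that the spliceosome cuts out while the polymerase is still moving. Intronic reads therefore come from unfinished or unspliced transcripts, from excised introns and from genes that lie inside introns. They are widely used as a readout of transcription, as distinct from the pool of finished mRNA. Long genes of the larva, such as the Hox genes, the ecdysone-response genes and the giant muscle genes, carry much of their length as introns.

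The probe pool had 15 oligonucleotides, 5 to 18S rRNA and 10 to 28S rRNA. One short probe to 18S and a pair to 28S are shown because the probe pool is what set the depleted portion apart from the input. Their targets lie on the rDNA scaffold of the fly assembly. Each is written 5′ to 3′.
Probe 4, to 18S rRNA: gaactaagaacggccatgcaccaccac
Probe 8, to 28S rRNA: gggtcccgaaggtatcctgaatctttcgc
Probe 12, to 28S rRNA: acacccgctagggccatcacaatgct
The paper states that candidate probes were aligned to spliced transcripts and introns, and that those with long matches to nontargets were removed. Matches of these probes to introns were not analysed here.

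The share of a random-primed library spent on introns was 19.6-fold higher after depletion than in the input, as a ratio of means. Intronic counts made up 5.43%, 5.16% and 5.20% of all counts in the depleted libraries of RNA samples 1, 2 and 3, against 0.283%, 0.298% and 0.224% in the input libraries. Both sets of libraries had similar totals, 14264502 to 16889144 estimated counts in the depleted and 16158593 to 16777734 in the input libraries. The groups did not overlap, and the exact two-sided permutation test gave p = 0.1, the smallest value that 3 libraries against 3 allow. In the same libraries 3771, 3756 and 3459 genes had at least 10 intronic counts in the depleted libraries, against 956, 960 and 776 in the input libraries (exact two-sided permutation p = 0.1, n = 3 each). At least 10 intronic counts in all 3 libraries were reached by 3266 genes after depletion and by 654 genes in the input, and 2613 genes passed in the depleted group alone. One gene passed in the input alone. In the poly(A)-primed libraries the intronic share was 1.64 to 1.88% after depletion and 1.75 to 1.97% in the input, and these ranges overlapped (exact p = 0.5, n = 3 each).

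**Figure D1:**
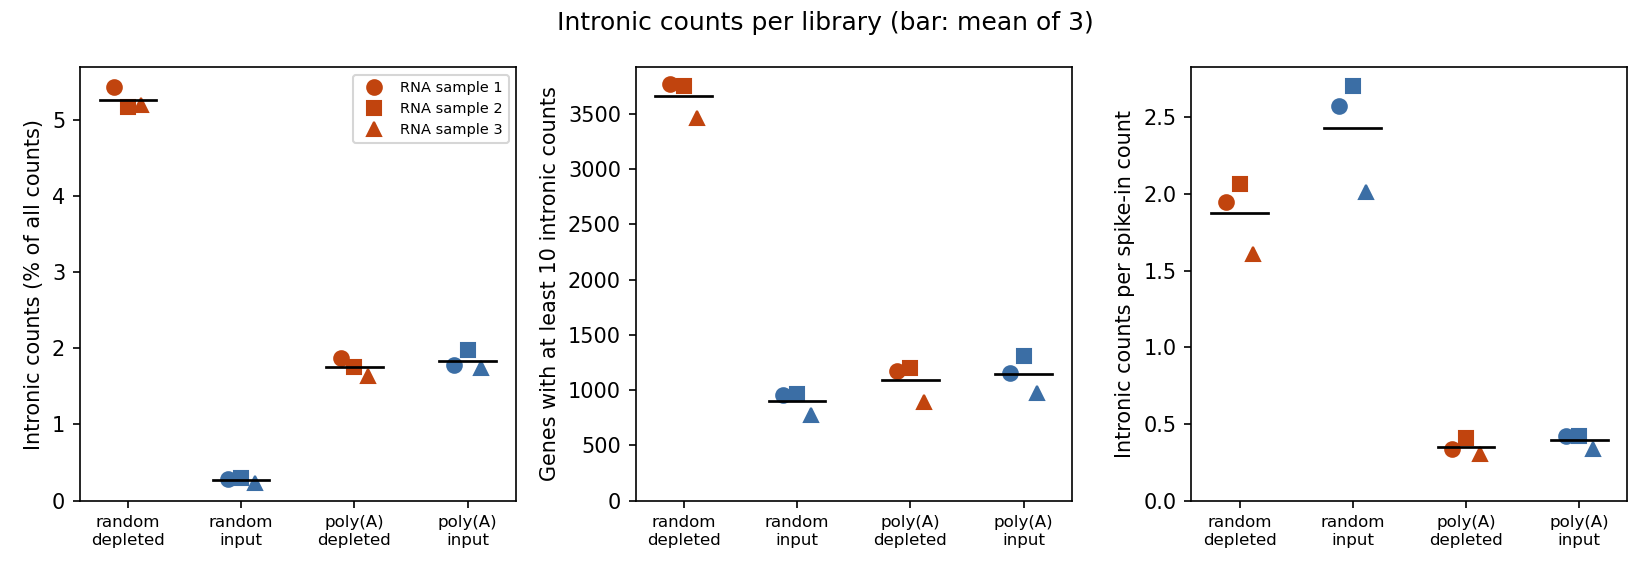
Intronic counts as a percent of all counts (left), genes with at least 10 intronic counts (middle) and intronic counts per spike-in count (right) in each of the 12 libraries, with symbols for RNA samples and bars for means of 3. In the left and middle panels the random-primed depleted libraries (5.16 to 5.43% and 3459 to 3771 genes) lie above the input libraries (0.224 to 0.298% and 776 to 960 genes), whereas per spike-in count (right) the depleted libraries are the lower in every RNA sample.

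A larger share of reads does not say how much intronic RNA was retained, so counts were scaled to 7 synthetic spike-in genes (SIRV) added to the RNA before depletion. Recovery is the ratio of these scaled counts, depleted to input, within an RNA sample. On this scale 75.6%, 76.4% and 79.8% of the intronic counts were recovered in RNA samples 1, 2 and 3 (77.3% ± 2.2, SD, n = 3). For spliced counts of the same 9093 genes the values were 90.5%, 89.9% and 89.9% (90.1% ± 0.4, SD, n = 3). Intronic recovery was below spliced recovery in 3 of 3 RNA samples, by 0.26, 0.23 and 0.17 on the log2 scale. The scale cancels in this difference, whose mean was -0.22 ± 0.05 (SD, n = 3, exact sign permutation p = 0.25, the smallest that 3 pairs allow). Counting error was smaller than the gap: the 95% intervals of intronic recovery ran over 74.3 to 76.9%, 75.1 to 77.7% and 78.4 to 81.2%, and those of spliced recovery over 89.2 to 91.9%, 88.5 to 91.3% and 88.5 to 91.2%. These intervals cover counting error only, since reads carried no molecular identifiers.

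The absolute level of recovery rests on how well 7 spike-ins stand for the RNA. In the ratio of depleted to input counts, relative to the ratio of all spike-ins together, SIRV1 stood at 0.715 to 0.752, while the other 6 lay between 0.930 and 1.08. The shortfall of a single spike-in was thus as large as that of intronic RNA. Leaving it out, a choice made after seeing the data, gave an intronic recovery of 75.1% and a spliced recovery of 87.6%. As unpaired levels the groups overlapped, with 1.95, 2.07 and 1.61 intronic counts per spike-in count after depletion and 2.58, 2.70 and 2.01 in the input (exact permutation p = 0.2, n = 3 each). RNA sample 3 was the lowest in both groups.

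**Figure D2:**
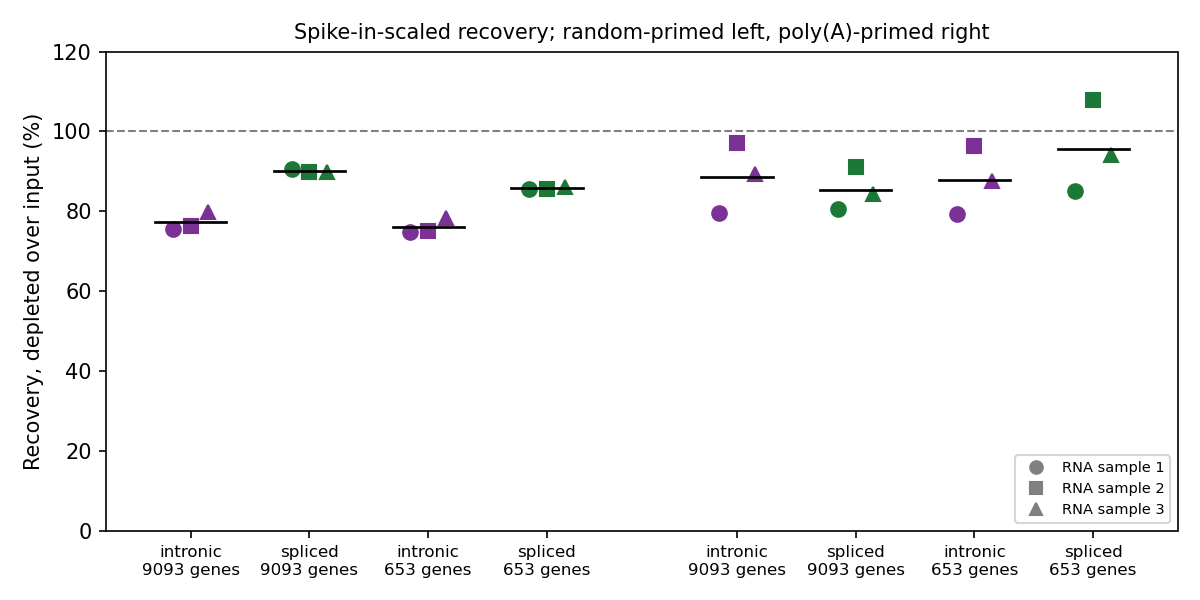
Recovery in percent (depleted over input, scaled to spike-ins) of intronic and spliced counts, for the 9093 genes with an intronic count and for the 653 genes above the minimum, random-primed on the left and poly(A)-primed on the right. Points are RNA samples, bars are means of 3 and the dashed line marks full recovery; in random-primed libraries all 3 intronic points (75.6 to 79.8%) lie below the spliced ones (89.9 to 90.5%).

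The 653 genes held most of the intronic signal, 72.3 to 74.1% of intronic counts after depletion and 73.5 to 75.5% in the input. Summed over them, recovery was 74.8%, 74.95% and 78.2% for intronic counts (76.0% ± 1.9, SD, n = 3) and 85.5%, 85.7% and 86.2% for spliced counts (85.8% ± 0.3). Introns were 28.7%, 27.5% and 32.1% of these genes' intronic plus spliced counts in the depleted libraries, against 31.5%, 30.3% and 34.2% in the input libraries. The share was lower after depletion in 3 of 3 RNA samples, but the ranges overlapped (exact p = 0.3). By annotation 636 of the 653 were protein-coding, 10 were noncoding RNA genes, 1 was a pseudogene and 1 a tRNA gene, and 5 had no entry in the annotation used. Their annotated introns summed to a median of 26376 bases, against 770 over all genes with an intronic count. The chromosomes held 161 of them on 3R, 122 on 2R, 121 on 3L, 115 on 2L, 103 on X, 20 on 4 and 5 on Y, with 1 on an unplaced scaffold and 5 not in the annotation.

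Gene by gene, intronic recovery was below input for most of the 653. The mean log2 recovery over 3 RNA samples had a median of -0.37 and quartiles of -0.58 and -0.21. It was below 0 in 606 genes, and 448 genes (68.6%) were below input in all 3 RNA samples while 13 (1.99%) were above it in all 3. On average 558 genes kept 50 to 100% of input and 47 kept more. An input library was the lowest for 651 of the 653, so the minimum favoured genes that are high in the input. These counts therefore describe the 653 only, and the same counts were not made over all genes. The median SD of a gene over RNA samples was 0.23 on the log2 scale. For the 568 of these genes that also had at least 10 spliced counts in all 6 libraries, the median was -0.36 for introns and -0.19 for spliced RNA. Intronic recovery was below spliced recovery in all 3 RNA samples in 217 of the 568, and above it in all 3 in 66. Across these 568 genes the rank correlation of intronic with spliced recovery was 0.16, a description only, since both kinds of count share libraries and spike-ins.

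In the edgeR quasi-likelihood test of intronic counts, with adjusted p-values (Benjamini-Hochberg) under 0.05 over all 3125 genes tested, 38 of the 653 genes fell and 0 rose. The background for falls was 2.46% of all genes tested (77 genes) and that for rises 0.128% (4 genes), and falls made up 5.82% of the 653, a group that the minimum itself selects for high input counts. Of the rises, *Su(var)2-HP2*, *CG12057* and *CG42231* had 0 intronic counts in every input library, and *syd* had 3, 10 and 5. The minimum thus kept them out of the 653. Counts of 430 falls and 31 rises over all genes had an unadjusted p under 0.05. Fitted changes of the 38 ranged from -5.04 to -0.78. The median fitted change was -0.39 over the 653 and -0.32 over all genes that passed the filter on low counts. With no filter, which adds genes with low counts, the median over all genes with counts was 0.51, the opposite direction. Spike-in counts were 17796 to 18689 in the input and 414439 to 470616 in the depleted libraries. An intron at equal level in both portions can thus be counted after depletion and be at 0 in the input. Whether this difference in depth accounts for the unfiltered median was not tested, nor was the part of genes at 0 in the input. That median is therefore not read as a rise of most introns. With no filter the median of the 653 stayed at -0.39. Numbered libraries share an RNA sample, and with that number as a block 217 of the 653 fell and 2 rose (*sls* and *ATPsynC*), against backgrounds of 10.3% and 0.448%. Single libraries moved the count of falls: it was 19 without depleted library 1, 21 without input library 1, 18 without input library 2 and 69 without input library 3. DESeq2 called 65 falls and 0 rises.

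Of 638 of these genes tested for spliced counts, 6 fell and 0 rose, against backgrounds of 1.25% and 0.0360% of 11100 genes. DESeq2 called 10 falls and 0 rises, against 209 falls and 4 rises over all 11100 genes. The block gave 161 falls and 2 rises (backgrounds 8.23% and 0.577%). The 6 were *cib*, *ckd*, *frm*, *Mmp1*, *step* and *Src64B*, with fitted changes from -1.93 to -1.14, and 2 of them also fell in intronic counts. Leaving out input library 1 gave 0 falls, and 1 was left without input library 2 or without depleted library 1. The difference itself was tested in 1 model over intronic and spliced counts, with a term for each library. In 14 of 638 genes the intronic change was the lower and in 2 the higher, with backgrounds of 1.02% and 0.296% of 3041 genes tested. With the block the counts were 41 and 7 (backgrounds 2.33% and 0.658%). Without depleted library 1 or depleted library 2 a total of 10 genes was called in place of 16. Without depleted library 3 it was 37, and without input library 1 it was 7. Over all genes tested the totals in these fits were 20 of 864, 18 of 853, 57 of 871 and 11 of 3756, in place of 40 of 3041. All 14 genes with the lower intronic change were among the 38 that fell.

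**Figure D3:**
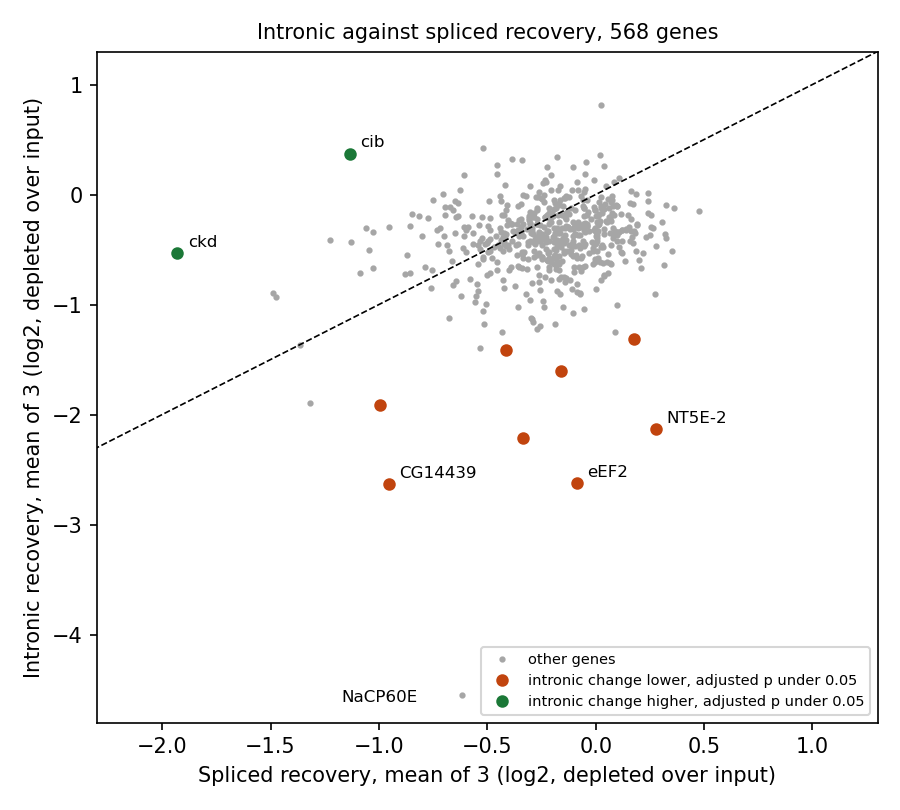
Mean log2 recovery of spliced counts (horizontal) against that of intronic counts (vertical) for the 568 genes with at least 10 counts of both kinds in all 6 random-primed libraries; the dashed line marks equal recovery. Of the 568 genes 391 lie below the line, and the 8 coloured genes below and the 2 above it passed the test of the difference (adjusted p under 0.05); *NaCP60E* lies lowest but did not pass.

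A small set of genes had the lowest recovery. Below 50% of input in all 3 RNA samples were 27 of the 653 (4.13%), of which 24 passed the intronic test. Below 25% were 9 genes, and below 12.5% were 5. Exons of another gene on the same strand lay in introns of 13 of the 27, against 199 of the 653, and 7 of the 27 were on X, against 103 of the 653.

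*CG1909* (FBgn0039911, BDGP6 chromosome 4, 583108 to 589348, plus strand, 10 introns) had the deepest fall that passed. It had 98, 99 and 133 intronic counts in the depleted libraries, against 138, 134 and 170 in the input libraries, which held far fewer spike-in counts. Scaled to spike-ins, 2.75%, 3.15% and 3.17% of input remained, with no overlap between groups. The fitted change was -5.04 ± 0.23 (SE, edgeR adjusted p = 1.5e-09). Spliced counts were 43, 44 and 28 after depletion and 3, 2 and 2 in the input, a fitted change of -0.57 that did not pass.

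A pair of amine receptor genes followed. *Dop1R1*, a dopamine receptor of the D1 type (FBgn0011582, chromosome 3R, 14165379 to 14214810, minus strand), had 151, 198 and 160 intronic counts after depletion and 141, 111 and 106 in the input. That left 4.19%, 7.65% and 6.11% of input (log2 change -4.10 ± 0.24, SE, edgeR adjusted p = 3.0e-08). *TyrR*, a tyramine receptor gene (chromosome 3R, 17750129 to 17763188), kept 8.94%, 12.3% and 8.86% of input. Its counts were 64, 83 and 70 after depletion and 28, 29 and 32 in the input (log2 change -3.32 ± 0.29, SE, edgeR adjusted p = 3.2e-06). Both receptor genes were low in spliced counts, at 50 to 57 and 122 to 203 after depletion and 0 to 6 and 6 in the input. In the test of the difference the intronic change was lower by 3.50 for *Dop1R1* and by 3.54 for *TyrR*.

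*NaCP60E*, a gene of the voltage-gated sodium channel family, was low but uneven, with 1.03%, 9.65% and 7.78% of input. Its intronic counts were 43, 419 and 127 after depletion and 161, 186 and 66 in the input, and the edgeR adjusted p was 0.18. It is named because it is among the 5 genes below 12.5%, and was chosen after its values were seen. The fifth of that set was *tRNA:Tyr-GTA-1-9*, with 117, 150 and 147 counts after depletion and 48, 61 and 53 in the input (9.48%, 10.6% and 11.2% of input, edgeR adjusted p = 9.8e-07). Tyrosine tRNA genes carry a short intron that tRNA splicing removes, here 113 annotated bases. This gene overlaps *Ntl* on the same strand and has near-identical copies elsewhere, so the source of its counts is uncertain.

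*CG14439* and *eEF2* kept a larger part. *CG14439* had 14.2%, 24.8% and 11.9% of input (log2 change -2.63 ± 0.26, SE, edgeR adjusted p = 1.4e-05). *eEF2*, which encodes the factor that moves the ribosome along mRNA, had 270, 278 and 296 intronic counts after depletion and 65, 70 and 77 in the input. That is 16.2%, 17.1% and 15.6% of input (log2 change -2.62 ± 0.21, SE, edgeR adjusted p = 1.7e-06). Its spliced counts were abundant, 44275, 46372 and 21614 after depletion and 1755, 2172 and 944 in the input, and their fitted change was -0.09. The annotation places a small noncoding RNA gene, *sncRNA:254*, inside an *eEF2* intron on the same strand, and its part in the intronic count was not tested. The calls of the difference for *CG14439* and *eEF2* were lost without input library 1 (edgeR adjusted p = 0.053 for each).

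*NT5E-2*, annotated among the ecto-5′-nucleotidase genes (chromosome 2R, 17485002 to 17493169), had low intronic recovery in both kinds of library. It had 982, 821 and 824 intronic counts after depletion and 165, 169 and 135 in the input, or 23.2%, 20.9% and 24.7% of input. Its spliced counts were 1176, 1238 and 736 after depletion and 40, 43 and 24 in the input, a fitted change of 0.27 that did not pass. The intronic change was lower than the spliced one by 2.38 ± 0.25 (log2, SE, edgeR adjusted p = 2.9e-05). Transposon annotation covered 76.9% of its intron bases.

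In the other direction, *cib* and *ckd* were the 2 of the 638 genes tested that passed the test of the difference. *cib* encodes an actin-binding protein of the β-thymosin type. Its introns stood at 130%, 134% and 125% of input, with 756, 625 and 677 counts after depletion and 23, 20 and 22 in the input (edgeR adjusted p = 0.50). Its spliced counts fell by 1.14 (log2, edgeR adjusted p = 0.038), at 5112, 4447 and 4971 after depletion and 467, 430 and 404 in the input. For *ckd* introns were at 79.1%, 55.2% and 75.5% of input while the spliced change was -1.93, and in both genes the spliced counts fell while the intronic counts did not pass. The call of the difference for *ckd* was lost without input library 1 (edgeR adjusted p = 0.25) or input library 3 (0.12). The highest intronic recovery among the 653 was that of *ATPsynC*, subunit c of the mitochondrial ATP synthase, at 173%, 195% and 161% of input. The gene of the RNase P RNA lies in one of its introns on the same strand. It did not pass without the block (edgeR adjusted p = 0.16) and passed with it (0.017).

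**Figure D4:**
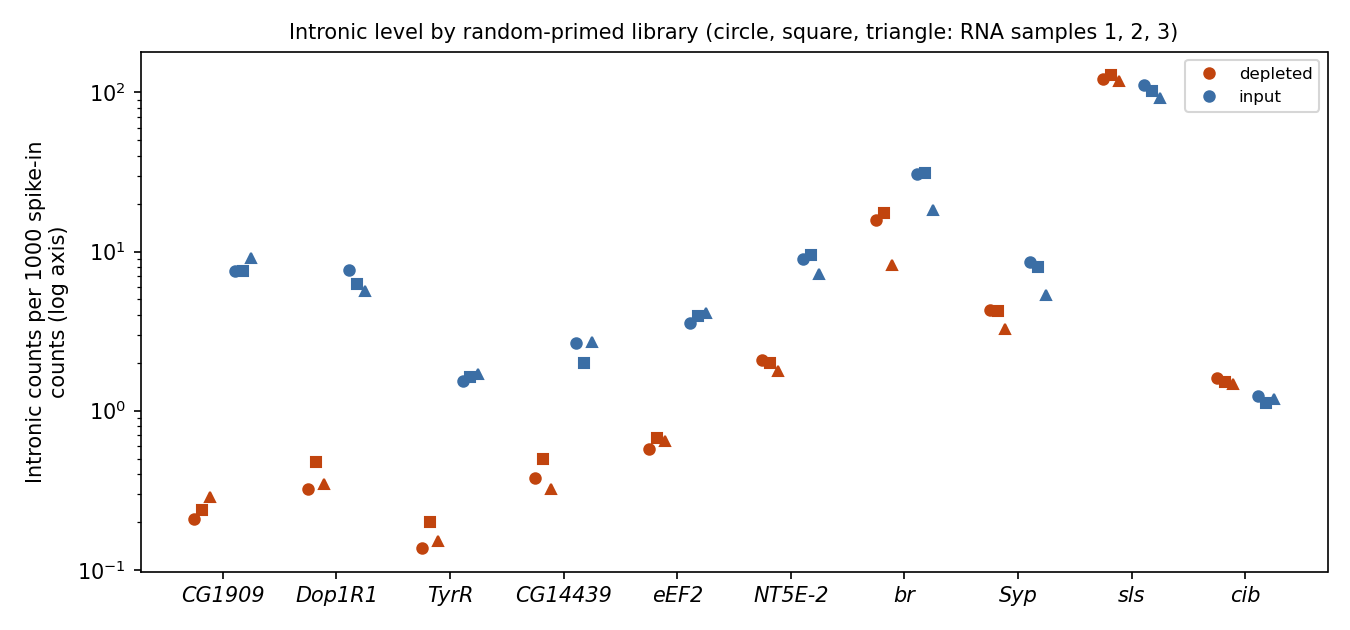
Intronic counts per 1000 spike-in counts (log axis) for 10 of the 653 genes in the 3 random-primed depleted and the 3 random-primed input libraries; each point is 1 library and symbols mark the RNA sample. From *CG1909* to *NT5E-2* the groups are separated (0.207 to 0.288 after depletion against 7.54 to 9.12 in the input for *CG1909*), whereas for *sls* and *cib* the depleted libraries lie slightly above the input.

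The 10 genes with the most intronic counts were mostly near or below input. These took 19.5% of the 653 genes' intronic counts after depletion and 15.9% in the input. First was *sls*, the titin-like elastic protein of the sarcomere (chromosome 3L, 2039681 to 2115611), with 57084, 53145 and 54419 intronic counts after depletion and 2048, 1822 and 1723 in the input. It stood at 109%, 125% and 128% of input, above it in 3 of 3 RNA samples, and its edgeR adjusted p was 0.37, or 0.0028 with the block. Its spliced counts were 20674, 23153 and 9332 after depletion and 1060, 1401 and 526 in the input, a fitted change of -0.46 that did not pass. *Msp300*, a giant nuclear-envelope and muscle protein of the nesprin family, had 118%, 126% and 81.3% of input.

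Others of the 10 lay below input, except *Hrb27C* and *CG7900*, which were above it in RNA samples 2 and 3. *br*, the Broad transcription factor of the ecdysone cascade, had 7456, 7274 and 3816 intronic counts after depletion and 564, 555 and 339 in the input. That was 51.5%, 56.3% and 45.6% of input, with no overlap between groups; the edgeR adjusted p was 0.13, or 2.0e-10 with the block. *heph*, a polypyrimidine-tract binding protein that regulates splicing, had 62.3%, 63.8% and 62.9% of input (adjusted p = 0.066, or 1.8e-07 with the block, edgeR). *Tg*, a transglutaminase, kept 82.5%, 70.9% and 70.5%. *Myo81F*, a myosin gene with the longest summed introns of the 653, kept 72.8%, 68.0% and 69.8%. *Dbp80*, an RNA helicase gene, kept 95.7%, 78.7% and 90.9%, *CG40178* 82.1%, 85.9% and 81.7%, *Hrb27C*, an hnRNP protein, 87.6%, 115% and 110%, and *CG7900* 95.7%, 110% and 107%. None of these 10 passed the edgeR test without the block at the filter and spike-in scale used throughout, and 6 passed with the block (*sls*, *Tg*, *br*, *Myo81F*, *heph* and *CG40178*). Without the block, *br* passed with no filter, with TMM or DESeq2 size factors and without depleted library 2. *Myo81F* and *heph* passed in DESeq2, *heph* also without input library 3, and these and *Tg* with a minimum of 10 counts in all 6 libraries.

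Larval gene groups were read as lists, each beside the median fitted change of -0.32 over all genes tested and the backgrounds of 2.46% falls without the block, and 10.3% falls and 0.448% rises with it. Falls were more frequent among the 653 themselves, at 5.82% without the block and 33.2% with it. Among Hox genes, which set segment identity along the body, 3 of 8 were above the minimum and 0 of 7 tested were called (median -0.56). *Ubx* kept 90.1%, 102% and 84.0% of its introns, *Antp* 73.9%, 109% and 95.8%, and *abd-A* 64.0%, 93.8% and 50.8%. Of the ecdysone-response genes 12 of 22 were above the minimum and 0 of 17 tested were called (median -0.37). With the block 6 of 17 fell, against 10.3% of all genes tested and 33.2% of the 653. *Eip75B*, a nuclear receptor, kept 78.2%, 67.8% and 77.7%, *EcR*, the hormone receptor itself, 79.8%, 76.0% and 71.7%, and *Eip63E*, a kinase, 113%, 43.9% and 78.4%. Summed, the list recovered 68.9% ± 4.3 of intronic counts (SD, n = 3) and 76.1% ± 4.0 of spliced counts.

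The list of RNA-binding and splicing regulators had 13 of 23 genes above the minimum, all 13 below input in all 3 RNA samples, as were 68.6% of the 653. Of 21 tested, 2 fell (*Syp* and *B52*) and 0 rose (median -0.47), and 12 of 21 fell with the block. The matching shares were 2.46% and 10.3% of all genes tested, and 5.82% and 33.2% of the 653. *Syp*, an hnRNP-type RNA-binding protein of neuromuscular synapses and neuroblasts, had 2020, 1760 and 1514 intronic counts after depletion and 157, 142 and 100 in the input. It kept 50.2%, 53.2% and 61.1% (log2 change -0.89 ± 0.21, SE, edgeR adjusted p = 0.036), and its call was lost (adjusted p = 0.072 to 0.31) without depleted library 1 or 3 or input library 1 or 2. *pum* kept 70.2%, 84.2% and 70.1%, and *msi* 82.3%, 75.9% and 91.0%. The list as a sum recovered 66.6% ± 1.5 of intronic counts (SD, n = 3) and 83.4% ± 2.9 of spliced counts, a difference of -0.33 ± 0.03 (log2).

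Of the neuronal adhesion and excitability genes 18 of 29 were above the minimum. Of 29 tested 2 fell (median -0.48), *dpr8* and *kirre*, both immunoglobulin-family surface proteins, and 10 of 29 fell with the block. Falls made up 2.46% and 10.3% of all genes tested, and 5.82% and 33.2% of the 653. *dnc*, the cAMP phosphodiesterase, kept 58.5%, 67.7% and 90.6%, with the glue gene *Sgs4* and *ng1* inside its introns. *Ten-m* kept 98.9%, 77.3% and 57.6%, *Ten-a* 78.7%, 63.5% and 59.3%, and *Fas3* 77.3%, 72.5% and 65.5%. Imaginal disc patterning genes had 11 of 25 above the minimum and 0 of 23 called (median -0.40). Under the block 5 of 23 fell, against 10.3% of all genes tested and 33.2% of the 653. *hth* kept 70.0%, 78.8% and 81.9%, *tkv*, a receptor for Dpp, 75.4%, 76.8% and 82.1%, *fz2*, a receptor for Wingless, 65.9%, 71.1% and 54.4%, and *ct* 57.8%, 78.9% and 74.4%.

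Sarcomere and giant cytoskeletal genes had 7 of 21 above the minimum and 0 of 17 called (median -0.42). Under the block 4 fell and 2 rose, against 10.3% and 0.448% of all genes tested, and 33.2% and 0.306% of the 653. Their sum was at 110% ± 6.0 of input for introns (SD, n = 3), and at 83.2% without *sls*, and *sls* held most of the list's counts. *shot*, a spectraplakin, kept 61.5%, 50.9% and 78.5%, and *Zasp52*, a Z-disc protein, 77.4%, 71.4% and 71.8%. The Y-linked fertility genes, some of which encode sperm dynein chains and carry very long introns, had 4 of 9 above the minimum. Of 6 tested 0 were called (median -0.67). With the block 4 of 6 fell, against 10.3% of all genes tested and 33.2% of the 653. *kl-3* kept 73.6%, 69.5% and 96.1%, *kl-2* 85.2%, 73.0% and 94.7%, *kl-5* 58.9%, 56.2% and 33.7%, and *WDY* 52.9%, 77.7% and 88.2%. Among basement membrane genes only *trol*, the fly perlecan, was above the minimum (1 of 10), at 79.4%, 69.6% and 77.1%, and 0 of 7 were called (median -0.30).

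Ribosomal protein genes, short and heavily spliced, had 4 of 87 above the minimum. Of 38 tested 1 fell, *RpL7A* (log2 change -1.88, edgeR adjusted p = 0.012), and the median was -0.16. *RpS5a* kept 104%, 69.6% and 73.5%, *RpL17* 90.6%, 90.9% and 84.6%, *RpS16* 48.7%, 57.1% and 99.2%, and *RpS7* 47.9%, 31.2% and 83.5%. Introns of all 4 hold snoRNA genes on the same strand, whose part in the counts was not tested. The 7 snoRNA host genes of the Uhg type had 0 above the minimum and 0 of 4 called (median -0.26). The list of 111 histone genes was set up as an intronless control. Of these, 0 had an intronic count, an outcome that the choice of list fixed in advance. Larval identity was clear in spliced counts, with all 12 glue and fat body genes at 293 or more counts in every random-primed library. Scaled to spike-ins, 3 of these 12 fell in the spliced test and 0 rose, against 1.25% and 0.0360% of all genes tested. With the block 5 fell and 1 rose (backgrounds 8.23% and 0.577%). *Sgs1* had at most 330 spliced counts in a depleted library and at most 666 in an input library. Of 9 yolk and chorion genes, which mark adult females, none passed 45 counts, and 3 were at 0 in all 6 libraries.

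By length of the annotated introns, summed intronic recovery was 77.3% for genes with up to 1000 intron bases, 79.0% from there to 5000, 83.6% to 20000, 74.5% to 50000, 72.4% to 100000 and 72.1% beyond. The SDs over RNA samples lay between 1.1 and 3.3, and spliced recovery in the same classes was 93.2%, 89.5%, 87.3%, 82.5%, 80.7% and 82.9%. Over 648 of the 653 genes the rank correlation of intronic recovery with intron bases was -0.12, as a description. Genes with exons of a same-strand gene in an intron, 841 in all and 199 of the 653, recovered 73.3% ± 2.0 of intronic counts (SD, n = 3), and those without one 78.9% ± 2.3. The 113 genes with transposons over more than 25% of their intron bases recovered 94.4% ± 4.4, but 78.8% without *sls*. Genes with no transposon in introns recovered 75.6% ± 1.8.

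The minimum in every library favoured genes that are high in the input. An input library was the lowest for 651 of the 653 genes. At mean intronic counts over 100 and up to 200 the 183 genes above the minimum had a median log2 recovery of -0.54, while all 423 genes tested at that level had a median fitted change of -0.32. From 200 to 400 the medians were -0.31 for both (240 and 255 genes). The 44 genes whose lowest library held 10 to under 11 counts had a median of -0.35, and the 76 at 9 to under 10, just outside the rule, had -0.32. Scaling by TMM factors from spliced counts in place of spike-ins moved the median intronic change of the 653 to -0.25 and their median spliced change to -0.06, and the median intronic change of all genes tested to -0.18.

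The poly(A)-primed libraries were not used by the rule, but share RNA and depletion reactions with the random-primed ones. Summed intronic recovery there was 79.5%, 97.0% and 89.4% (88.6% ± 8.8, SD, n = 3), and spliced recovery of the same genes 80.5%, 91.1% and 84.2% (85.3% ± 5.3). For the sum over all genes the difference changed sign between RNA samples (-0.02, 0.09 and 0.09 on the log2 scale, exact sign permutation p = 0.5, n = 3). Over the 653 genes intronic recovery was 79.2%, 96.3% and 87.6% and spliced recovery 85.0%, 108% and 94.0%, a difference of -0.10, -0.16 and -0.10.

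Of the 653 genes 516 could be tested for intronic counts in the poly(A)-primed libraries, and 6 fell and 2 rose (edgeR, backgrounds 1.25% and 0.178% of 1121 genes). With the block 34 fell and 7 rose (backgrounds 5.98% and 0.624%). The falls were *NT5E-2*, *br*, *HnRNP-K*, *CG45050*, *Eph* and *nmo*, and the rises *Msp300* and *Cht10*, all named here after their values were seen. *NT5E-2* had 39, 44 and 23 intronic counts after depletion and 197, 184 and 181 in the input, or 16.1%, 31.7% and 14.4% of input (edgeR adjusted p = 2.7e-05), low again in all 3 RNA samples. *br* had 469, 467 and 345 counts after depletion and 834, 1189 and 587 in the input (edgeR adjusted p = 0.024), with no overlap between groups. *Msp300* had 172, 151 and 192 counts after depletion and 36, 48 and 33 in the input, or 389%, 420% and 639% of input (edgeR adjusted p = 2.7e-05), against 81.3 to 126% by random priming. Whether these 2 effects on *Msp300* differ was not tested. Of the 38 genes that fell by random priming 23 could be tested, all 23 had a fitted change below 0 (median -0.52), and 2 passed. Over all 516 genes 320 were below 0 (median -0.12). *CG1909*, *TyrR* and *Dop1R1* had at most 6 intronic counts in any poly(A)-primed library, so their loss was not detectable there.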

How the data were processed

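The authors deposited estimated counts per gene, for spliced and intronic sequence separately, in 12 libraries. To make these estimated counts, the authors trimmed reads with cutadapt or BBDuk and ran kallisto against an index of transcripts, spike-ins and introns with short flanks (BDGP6). Kits were stranded. The table keeps no reads, so a count shared between an intron and a gene inside it follows kallisto's split. RNA had been treated with DNase.

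Genes came from the table, coordinates from Ensembl 115 (BDGP6.54), a later annotation of the same assembly. The 138 rRNA-named genes were left out. The 7 SIRV genes' summed counts set the scale (17796 to 18689 in random-primed input, 414439 to 470616 in random-primed depleted libraries). Counts were rounded and tested with edgeR 4.0.16 (robust quasi-likelihood, filterByExpr, limma 3.58.1, R 4.3.3) with library sizes set to that sum, as depleted against input; interactions used 1 model over both kinds of count. Sums were compared by exact permutation. DESeq2 1.42.0, TMM, other filters and left-out libraries were alternatives. In simulated data with planted changes of 2 (log2), 69 of 84 genes were called for intronic counts and 60 of 87 for the difference. At planted changes of 1 the numbers were 31 of 91 and 14 of 89. Among genes with no planted change 8 of 2787 and 3 of 2705 were called. The simulation gave all genes the same fixed dispersion and no effect of RNA sample, so these rates need not hold for the real libraries.

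Same-numbered libraries come from 1 RNA sample. Their deviations from group means correlated at 0.12, 0.29 and 0.42 (intronic) and 0.22, 0.68 and 0.72 (spliced), so values with a block for that number are given beside those without. Depleted libraries 2 and 3 correlated most with their own input library. RNA sample 1 was less distinct: depleted library 1 correlated at 0.38 with input library 2 (spliced), and input library 1 at 0.18 with depleted library 2 (intronic). RNA samples were separate larval pools. Replicates differed by more than sampling noise (chi-square per degree of freedom of 1.50 or more).

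Named genes were the 10 with the highest intronic counts, up to 5 falls and 5 rises of the intronic test and of the difference (adjusted p under 0.05, same side in 3 of 3), and 2 to 4 leading genes of each list. Members and lists were chosen with earlier results of these data known. Intron GC content and probe matches were not analysed here.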

Additional observations from a re-analysis of the deposited data

Results flagged for a closer look

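Spike-in genes have no introns of the fly, yet part of their counts was assigned to intronic sequence of the synthetic annotation. In random-primed libraries this part was 1.52%, 1.45% and 1.74% of spike-in counts after depletion and 1.20%, 1.03% and 0.851% in the input. It was above 0 in all 6 libraries, and the groups did not overlap (exact permutation p = 0.1, n = 3 each). SIRV3 alone held at least 92.9% of it in each of these libraries. In poly(A)-primed libraries the order was the opposite. The part there was 3.55 to 4.31% after depletion and 4.85 to 5.41% in the input (exact permutation p = 0.1, n = 3 each). These counts are part of the spike-in sums, and so of the scale of each recovery value.

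Genes named as rRNA, which were left out of all comparisons, had 4685, 4318 and 7808 intronic counts after depletion and 169, 201 and 354 in the input of the random-primed libraries. The pseudogene *28SrRNA-Psi:CR45851* held 89.4% of them and stood at 104%, 90.0% and 90.8% of input.

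For genes with transposons over more than 25% of their intron bases, intronic recovery was above spliced recovery in all 3 RNA samples by random priming (mean difference 0.0747 on the log2 scale) and below it in all 3 by poly(A) priming (-0.26). The difference between the 2 kinds of library was not tested. Without *sls* the means were -0.26 by random priming and -0.27 by poly(A) priming.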

How the results depend on the processing

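Intronic recovery over all genes ran from 76.0 to 78.1% and spliced recovery from 89.9 to 90.2% when 1 RNA sample was left out, their log2 difference from -0.25 to -0.20, and poly(A)-primed intronic recovery from 84.4 to 93.2%. Spliced recovery was 88.1% on the median over spike-ins, 87.6% without SIRV1 and 85.8% over the 653 genes alone, where the difference was -0.18. The median log2 intronic recovery of the chosen genes was -0.41 on the median over spike-ins, -0.42 without SIRV1, -0.36 for 1054 genes at a minimum of 5 counts and -0.32 at a mean of 50 or more. Alternatives without SIRV1 or without *sls* were chosen after seeing the data.

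Counts of calls (both directions) depended on the fit, and the cause was not tested. With the replicate block, which pairs libraries by RNA sample, there were 336 in place of 81 for intronic counts of all genes tested and 219 in place of 38 for the 653, 977 in place of 143 and 163 in place of 6 for spliced counts, and 91 in place of 40 and 48 in place of 16 for the difference. DESeq2 gave 145 intronic calls over all genes and 65 among the 653, 213 and 10 spliced calls, and 61 and 20 calls of the difference. Without a filter there were 141 intronic calls and 73 of the difference over all genes. With a minimum of 10 in all 6 libraries there were 73 intronic calls over all 677 genes tested and 69 among the 653. Calls of the difference were then 18 over all 587 genes tested. For spliced counts TMM factors gave 247 over all genes and 17 among the 653, and DESeq2 size factors 256 and 18. Leaving out 1 library gave 21 to 139 intronic calls over all genes and 18 to 69 among the 653, 68 to 151 and 0 to 7 spliced calls, and 11 to 57 and 7 to 37 calls of the difference. Without a depleted library the filter kept fewer genes. Of 978 values of single named genes under alternatives, 919 kept their direction and side of the threshold, 51 newly passed, 8 no longer passed and 0 reversed. The 38 intronic falls all passed in DESeq2 as well, 36 of them with the block and 31 with TMM factors. Between 17796 and 18689 spike-in counts in the input libraries limit the precision of each recovery.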
